A study of Homo sapiens with 4 samples.

Results

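The genes of the proteasome, its regulatory particles and its assembly factors were described on 4 bead arrays of HEK293 cells. Members were all genes whose only platform symbol was PSM followed by a letter from A to G and a number, which gave 43 genes and 66 probes out of 18474 genes with a named probe. A gene was read from its brightest probe. Of the 43 genes, 38 were detected on at least 1 array and 37 on all 4, and the other 5 are described only as below background. Detected means above the upper tail of 452 probes for olfactory receptors, which served as negative controls, at p under 0.01. The membership rule used symbols alone, but the family itself was selected on log2 differences already seen between these same 4 arrays, so its values in every comparison are a description and carry no test.

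HEK293 is a human embryonic kidney cell line. CDC73, or parafibromin, belongs to the PAF1 complex, a partner of RNA polymerase II during transcript elongation. In each transfection 500000 cells received 100 pmol of siRNA, and after 24 h they were replated into a 35 mm dish, where they became confluent, or a 100 mm dish, where they stayed sparse, and were harvested 24 h later. The 4 groups were therefore CDC73 siRNA in confluent cells, control siRNA in confluent cells, CDC73 siRNA in sparse cells and control siRNA in sparse cells, with 1 array each. Whether separate transfections filled the dishes is not stated in the labels.

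With 1 array per group there was no replicate check, and no p-value is given. As a yardstick, the difference was compared between the 2 probes of each of 1641 genes that had exactly 2 detected probes. The SD of a single probe's log2 difference was 0.324 for the siRNA comparison in confluent cells and 0.251 in sparse cells. It was 0.329 for the density comparison with CDC73 siRNA and 0.289 with control siRNA. This spread covers the disagreement between probes on the same arrays and not the spread between cultures.

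The summed probe intensity per array was between 22948071 and 28273404, lowest in CDC73 siRNA confluent cells, and 28 to 30.5% of probes were detected. The intensity of the CDC73 probe was between 72.3 and 98.3, below the detection limit of all 4 arrays, so these arrays do not show whether the target was depleted. Of 6 HEK293 markers, VIM, KRT8, KRT18 and NEFL were detected on all 4 arrays, while NEFM and PAX2 were detected on none. None of 4 haematopoietic and none of 2 hepatocyte markers was detected. Of 4 fibroblast markers, COL1A1 was detected on all 4 arrays and LUM, near the detection limit, on 3, all but control siRNA sparse cells.

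The proteasome degrades proteins that carry ubiquitin. Its barrel, the 20S core, is built from rings of alpha subunits (PSMA genes), which gate the entrance, and rings of beta subunits (PSMB genes), which hold the cutting sites. The 19S particle caps the barrel: its base contains the ATPases that unfold substrates (PSMC genes) and the large scaffold subunits PSMD1 and PSMD2, and its lid contains the deubiquitinase PSMD14. Other caps, made by the PSME genes, activate the core in place of 19S, and the PSMG proteins, with PSMD5, PSMD9 and PSMD10, help to assemble the particles. When proteasome activity is short, the transcription factor NFE2L1 induces most subunit genes together through antioxidant response elements in their promoters.

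Promoters are shown for 4 members. PSMA2 had the lowest log2 difference, CDC73 minus control siRNA, at both densities, and PSME4 had the highest in sparse cells. The lowest log2 difference, confluent minus sparse cells, was that of PSME3 with CDC73 siRNA and of PSMD1 with control siRNA. Each sequence is from RefSeq, build GRCh38.p14, and runs 5′ to 3′ on the gene's strand from 250 bases before the annotated start to 50 bases after it. Capitals mark the letters of 3 motifs searched on both strands: TGACNNNGC, the core of the antioxidant response element, CCAAT, the CCAAT box, and CCGGAAG, an ETS-type site. The positions are chr7:42932125-42932424 on the minus strand for PSMA2, chr2:53970944-53971243 on the minus strand for PSME4, chr17:42833147-42833446 on the plus strand for PSME3 and chr2:231056617-231056916 on the plus strand for PSMD1.
PSMA2: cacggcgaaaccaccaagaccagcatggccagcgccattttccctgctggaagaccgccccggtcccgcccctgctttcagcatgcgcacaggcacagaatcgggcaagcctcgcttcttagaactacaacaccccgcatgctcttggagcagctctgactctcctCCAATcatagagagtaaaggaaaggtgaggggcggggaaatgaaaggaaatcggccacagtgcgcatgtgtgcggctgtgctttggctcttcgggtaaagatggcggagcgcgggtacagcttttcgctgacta
PSME4: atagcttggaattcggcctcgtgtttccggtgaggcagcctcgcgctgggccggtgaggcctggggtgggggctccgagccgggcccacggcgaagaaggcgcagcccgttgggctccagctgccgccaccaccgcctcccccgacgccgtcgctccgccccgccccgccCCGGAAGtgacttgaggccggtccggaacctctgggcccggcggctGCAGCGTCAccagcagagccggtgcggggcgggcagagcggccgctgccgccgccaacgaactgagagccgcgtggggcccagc
PSME3: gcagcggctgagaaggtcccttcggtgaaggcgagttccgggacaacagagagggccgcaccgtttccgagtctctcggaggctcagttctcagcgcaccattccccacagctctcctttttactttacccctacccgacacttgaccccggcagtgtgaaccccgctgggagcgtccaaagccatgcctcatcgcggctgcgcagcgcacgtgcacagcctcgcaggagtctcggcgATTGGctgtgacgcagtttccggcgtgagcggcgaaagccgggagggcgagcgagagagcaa
PSMD1: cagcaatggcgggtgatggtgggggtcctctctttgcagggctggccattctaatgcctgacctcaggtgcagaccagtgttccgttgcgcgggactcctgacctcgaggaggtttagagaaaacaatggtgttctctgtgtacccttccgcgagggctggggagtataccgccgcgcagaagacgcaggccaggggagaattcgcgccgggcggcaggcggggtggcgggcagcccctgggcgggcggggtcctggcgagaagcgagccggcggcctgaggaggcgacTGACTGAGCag

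In these windows PSMA2 and PSME3 each held a CCAAT match, the one of PSME3 read on the opposite strand. PSME4 held an ETS-type match and, on the opposite strand, an antioxidant response core, and PSMD1 held an antioxidant response core. No 2 of these matches overlapped. Over the family, 38 genes had a promoter in the table, with 46 promoters in all. The antioxidant response core was in 14 of them (30.4%), against 13.3% of all 34943 promoters. The ETS-type letters were in 12 (26.1%), against 10.2%, and CCAAT in 18 (39.1%), against 34.6%. A match to letters is a description of the window and not a mapped site.

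Detection differed between the roles. Of 14 alpha and constitutive beta genes with a named probe, 13 were detected on every array, and the testis variant PSMA8 was detected on none. Among the inducible beta subunits, which replace constitutive ones in immune cells, PSMB10 was detected on all 4 arrays, at 687 and 1115 in CDC73 and control siRNA confluent cells and 1485 and 1694 in CDC73 and control siRNA sparse cells. Its partners PSMB8 and PSMB9, the thymic subunit PSMB11, the inhibitor PSMF1 and PSMA8 had intensities of their brightest probe between 57.2 and 92.9 on all arrays, below the lowest detected intensity of every array (102.8 to 122.6). PSMD5, a chaperone of the 19S base, was near that limit, with 92.9 and 143 in CDC73 and control siRNA confluent cells and 108 and 113 in CDC73 and control siRNA sparse cells, and was detected in control siRNA confluent and CDC73 siRNA sparse cells. All 14 measured genes of the 19S base and lid were detected on every array. PSMA7, PSMC5, PSMD7, PSMD13 and PSMG4 were not analysed here.

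The deposited intensities, before any normalization, were as follows for the members that passed 1.5-fold in a comparison or stood at the end of their role by siRNA difference. PSMA3, an alpha subunit, had 1616 and 1947 in CDC73 and control siRNA confluent cells and 1871 and 2828 in CDC73 and control siRNA sparse cells. PSMA4, also of the alpha ring, had 4053 and 4522 in CDC73 and control siRNA confluent cells and 5337 and 5388 in CDC73 and control siRNA sparse cells. PSMA5, a further alpha subunit, had 4128 and 4995 in CDC73 and control siRNA confluent cells and 5750 and 7644 in CDC73 and control siRNA sparse cells. In all 3 the CDC73 siRNA confluent array was lowest and the control siRNA sparse array highest. PSMB1, a beta subunit, had 13230 and 15084 in CDC73 and control siRNA confluent cells and 14702 and 16161 in CDC73 and control siRNA sparse cells. PSMB2, a beta subunit too, had 4276 and 4678 in CDC73 and control siRNA confluent cells and 6187 and 7804 in CDC73 and control siRNA sparse cells. PSMB3, likewise of the beta ring, had 8927 and 10962 in CDC73 and control siRNA confluent cells and 11981 and 15552 in CDC73 and control siRNA sparse cells. These beta genes had the same order of extremes. PSMB4, another beta subunit, had 4997 and 4632 in CDC73 and control siRNA confluent cells and 4781 and 5172 in CDC73 and control siRNA sparse cells. PSMB6, which carries the caspase-like site, had 6524 and 8366 in CDC73 and control siRNA confluent cells and 8517 and 10369 in CDC73 and control siRNA sparse cells. PSMB4 differed from the others in having its lowest value in control siRNA confluent cells.

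PSMC1, an ATPase of the 19S base, had 7164 and 9361 in CDC73 and control siRNA confluent cells and 12772 and 11291 in CDC73 and control siRNA sparse cells. PSMC3, another of these ATPases, had 2894 and 3349 in CDC73 and control siRNA confluent cells and 6701 and 4930 in CDC73 and control siRNA sparse cells. PSMC4, also an ATPase, had 265 and 378 in CDC73 and control siRNA confluent cells and 447 and 452 in CDC73 and control siRNA sparse cells. For each, both confluent arrays were below both sparse arrays. PSMC6, the last of the ATPases shown, had 1095 and 1436 in CDC73 and control siRNA confluent cells and 1838 and 2102 in CDC73 and control siRNA sparse cells. PSMD1, the base scaffold, had 1071 and 1182 in CDC73 and control siRNA confluent cells and 2036 and 2115 in CDC73 and control siRNA sparse cells. PSMD2, the second scaffold of the base, had 1043 and 2008 in CDC73 and control siRNA confluent cells and 2677 and 2209 in CDC73 and control siRNA sparse cells. The same held for these genes. PSMD4, the ubiquitin receptor, had 4113 and 3506 in CDC73 and control siRNA confluent cells and 4363 and 3633 in CDC73 and control siRNA sparse cells. Its confluent and sparse values overlapped. PSMD3, a lid subunit, had 341 and 444 in CDC73 and control siRNA confluent cells and 440 and 386 in CDC73 and control siRNA sparse cells. PSMD6, also of the lid, had 2038 and 2558 in CDC73 and control siRNA confluent cells and 3834 and 4011 in CDC73 and control siRNA sparse cells. PSMD8, a further lid subunit, had 1651 and 2417 in CDC73 and control siRNA confluent cells and 3206 and 3193 in CDC73 and control siRNA sparse cells. PSMD6 and PSMD8 were lower on both confluent arrays, and PSMD3 overlapped. PSMD11, a lid scaffold, had 184 and 190 in CDC73 and control siRNA confluent cells and 256 and 257 in CDC73 and control siRNA sparse cells. PSMD12, another lid scaffold, had 880 and 894 in CDC73 and control siRNA confluent cells and 1462 and 1433 in CDC73 and control siRNA sparse cells. Both were again lower on the confluent arrays.

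PSMD9, a chaperone of the base, had 231 and 362 in CDC73 and control siRNA confluent cells and 264 and 389 in CDC73 and control siRNA sparse cells. PSMG1, a chaperone of the alpha ring, had 1545 and 2244 in CDC73 and control siRNA confluent cells and 2777 and 3216 in CDC73 and control siRNA sparse cells. PSMG2, its partner, had 2317 and 2590 in CDC73 and control siRNA confluent cells and 1978 and 2757 in CDC73 and control siRNA sparse cells. PSMD9 was lower on both CDC73 siRNA arrays, PSMG1 was lower on both confluent arrays, and PSMG2 was lowest in CDC73 siRNA sparse cells. PSME1, a subunit of the interferon-inducible activator, had 4800 and 6061 in CDC73 and control siRNA confluent cells and 4782 and 4682 in CDC73 and control siRNA sparse cells. PSME2, its partner, had 1053 and 1383 in CDC73 and control siRNA confluent cells and 1576 and 1339 in CDC73 and control siRNA sparse cells. PSME1 was highest in control siRNA confluent cells and PSME2 in CDC73 siRNA sparse cells. PSME3, the nuclear activator, had 721 and 1510 in CDC73 and control siRNA confluent cells and 2581 and 2010 in CDC73 and control siRNA sparse cells. PSME4, the PA200 activator, had 1602 and 2448 in CDC73 and control siRNA confluent cells and 3468 and 2150 in CDC73 and control siRNA sparse cells. Both were highest in CDC73 siRNA sparse cells and lowest in CDC73 siRNA confluent cells.

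**Figure D1:**
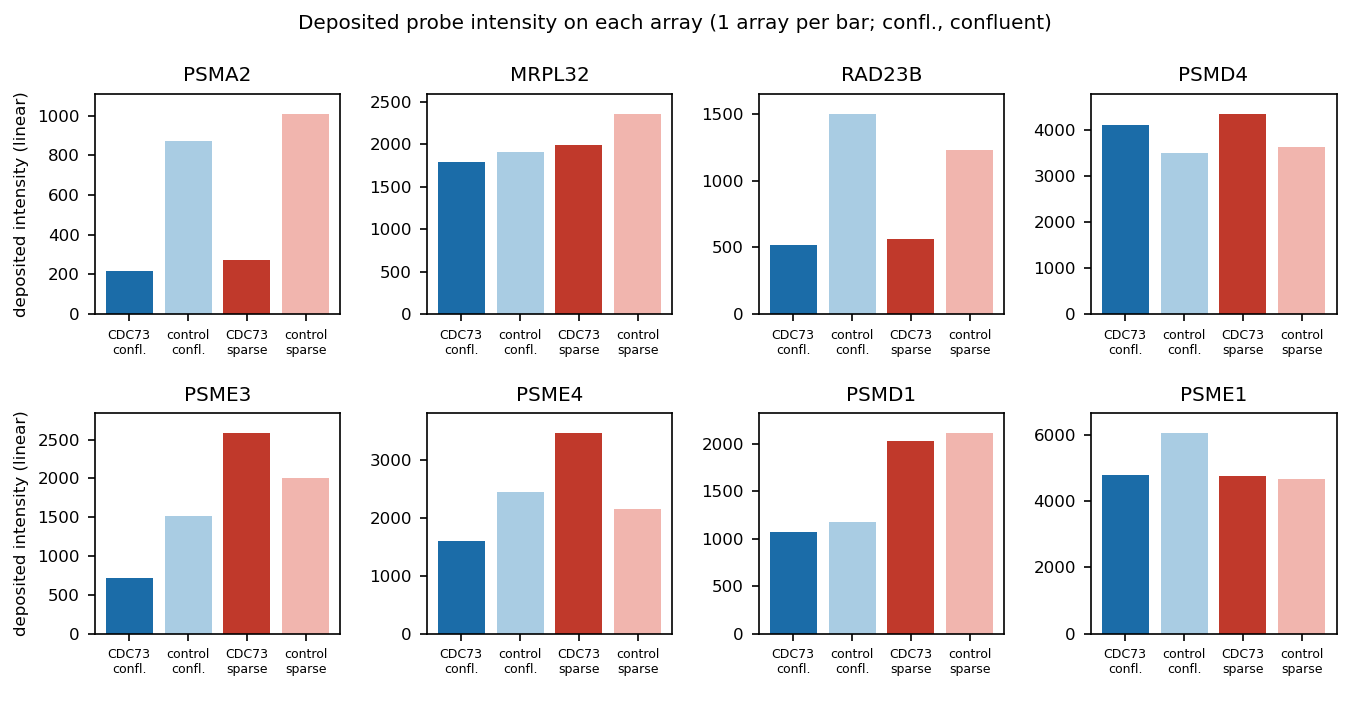
Deposited probe intensity (linear scale, before normalization) of 6 members, of MRPL32, which shares a start region with PSMA2, and of the shuttle factor RAD23B on each of the 4 arrays, 1 bar per array, with CDC73 siRNA beside control siRNA in confluent and then in sparse cells. PSMA2 is at 215 and 273 in the CDC73 siRNA bars, against 873 and 1010 in the control siRNA bars.

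The first question was which family members differed after CDC73 siRNA in confluent cells. PSMA2 stood apart from the rest of the family, and the 20S core otherwise lay slightly above the all-gene median. After background correction and quantile normalization, 26 of the 38 measured members were higher with CDC73 siRNA and 12 were lower (49.7 and 50.2% of all genes), with a median log2 difference of 0.13, against -0.00 over all 10497 genes measured. Only PSMD4, the 19S ubiquitin receptor, was at least 1.5-fold higher (2.63% of members, against 11.3% of all genes). PSMA2 and PSMD5 were past 1.5-fold lower by their measured values (5.26% of members, against 13.3% of all genes). PSMD5 was below background with CDC73 siRNA, and with this background correction the detection limit bounds it at 1.31-fold lower. In the authors' deposited table its log2 difference was -0.29, which is smaller than that bound. Median scaling gave 6 members at least 1.5-fold lower and none higher, but it also moved the all-gene median to -0.40. The members' median was then -0.20, or 0.19 above that of all genes. The share of all genes past 1.5-fold was not counted under that scaling.

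PSMA2, an alpha subunit, had intensities of 215 with CDC73 siRNA and 873 with control siRNA in confluent cells, and of 273 with CDC73 siRNA and 1010 with control siRNA in sparse cells. Both values after CDC73 siRNA were below both control values. The normalized log2 difference was -1.83 in confluent and -2.13 in sparse cells, that is, 3.57-fold and 4.39-fold lower with CDC73 siRNA. In the authors' deposited table the differences were -1.67 and -1.90. Across the alternative settings they ranged from -2.22 to -1.56 in confluent cells and from -2.15 to -1.87 in sparse cells. The gene was read from a single probe, so no second probe checks it. In such bulk samples a lower level in every cell and a loss from some cells cannot be told apart.

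The start of PSMA2 lies 202 bases from that of MRPL32, a mitochondrial ribosomal protein gene transcribed in the opposite direction. MRPL32 had intensities of 1794 and 1913 in CDC73 and control siRNA confluent cells and of 1984 and 2359 in CDC73 and control siRNA sparse cells. Its log2 difference was 0.45 in confluent and -0.25 in sparse cells, so the low values of PSMA2 were not shared by the gene across the same interval.

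The other 12 core genes had a positive difference in confluent cells, from 0.01 for PSMA1, whose second probe gave -0.27, to 0.52 for PSMB4. PSMB4, a beta subunit, had intensities of 4997 with CDC73 siRNA and 4632 with control siRNA and was the only core gene whose positive difference exceeded the probe SD. The sign of most others changed with the scaling. With median scaling in place of quantile normalization, PSMA6, PSMB2 and PSMB4 were the 3 of 13 core genes that were higher and 10 were lower, and the all-gene median was then -0.40. Relative to that median, 12 of the 13 were above it under both scalings.

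Among the 14 genes of the 19S base and lid the median difference in confluent cells was 0.19, with 9 higher and 5 lower. PSMD4 had intensities of 4113 and 3506 in CDC73 and control siRNA confluent cells, a log2 difference of 0.66, and a second probe gave 0.66 too. The lid scaffold subunits PSMD12 (0.58) and PSMD11 (0.56) and the base scaffold PSMD1 (0.42) were also above the probe SD. In all, 4 of the 14 (28.6%) were above it, against 24.0% of all genes. Median scaling brought PSMD12, PSMD11 and PSMD1 to 0.13, 0.12 and -0.00. The other base scaffold, PSMD2, went the opposite way, at 1043 with CDC73 siRNA and 2008 with control siRNA, a difference of -0.44. The 5 ATPases lay between -0.15 (PSMC2) and 0.23 (PSMC3) by their brightest probes, while second probes gave 0.73 for PSMC6 and 0.29 for PSMC1.

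Of the activators, PSME3, the nuclear activator also known as PA28 gamma, had an intensity of 721 with CDC73 siRNA and 1510 with control siRNA in confluent cells, a log2 difference of -0.56, and its second probe gave -0.63. PSME4, the PA200 activator, was at -0.14, and the interferon-inducible pair PSME1 and PSME2 was at 0.03 and 0.14. The chaperone PSMG2, which pairs with PSMG1 to assemble the alpha ring, was at 0.35, and PSMG1 was at -0.04.

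**Figure D2:**
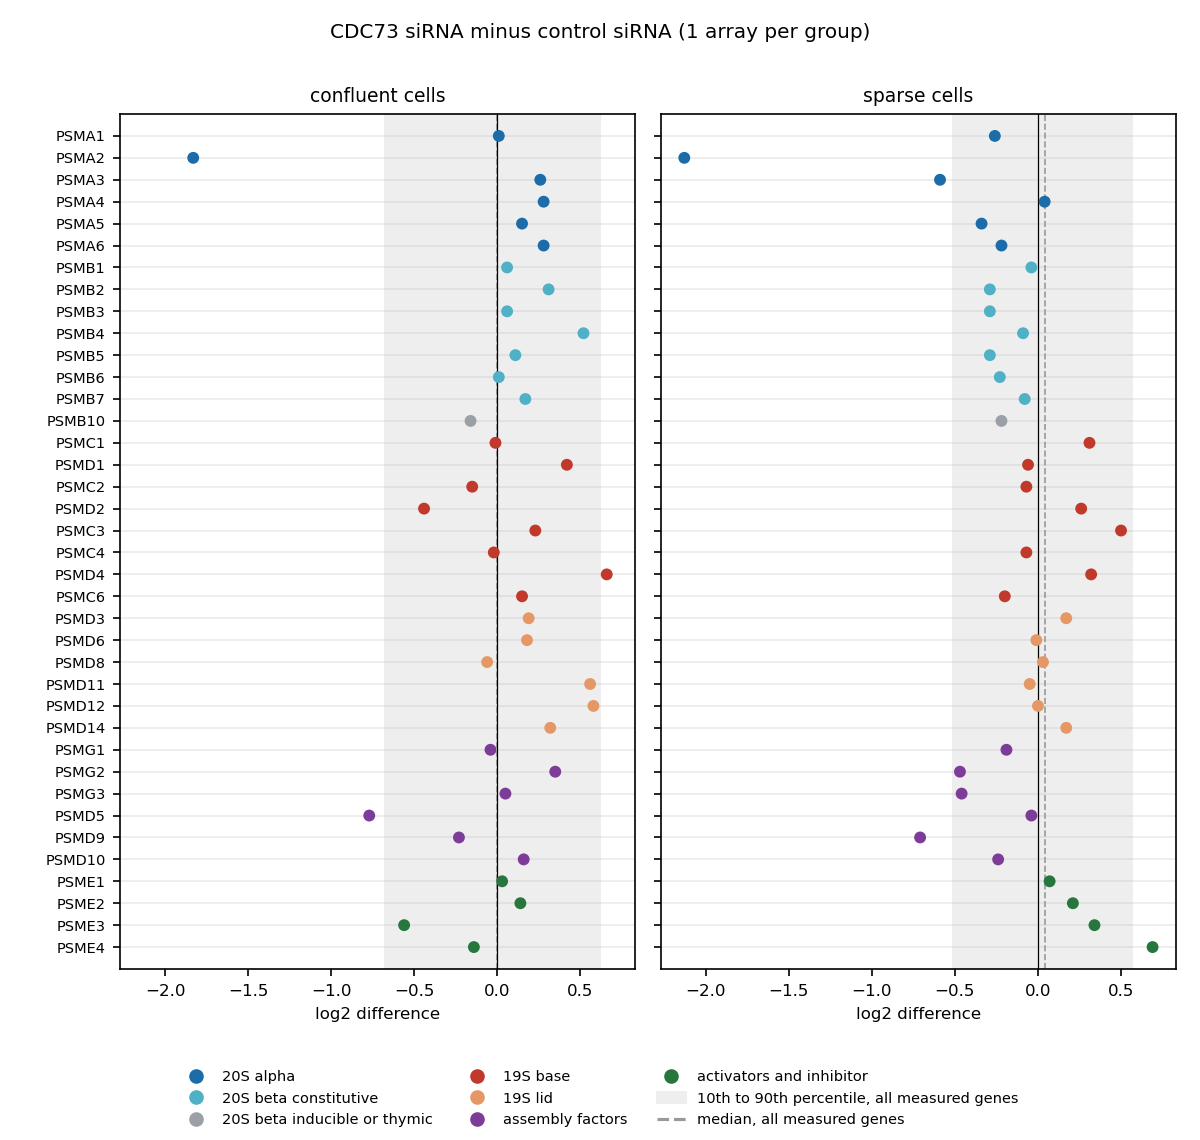
Normalized log2 difference, CDC73 minus control siRNA, for the 38 measured members in confluent (left) and sparse cells (right), 1 array per group, coloured by role. The grey band spans the 10th to 90th percentile of all measured genes and the dashed line is their median, and PSMA2 lies far to the left of the band in both panels.

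In sparse cells the family was divided by role. Lower with CDC73 siRNA by more than the probe SD were 7 of 13 core genes (53.8%) and 3 of 6 assembly factors, against 23.4% of all genes. Higher by more were 2 of the 4 measured activators, against 29.0% of all genes. The assembly factors and activators are too few for their shares to be set against these. The 19S genes were spread on both sides of 0. Of the 38 measured members, 13 were higher and 25 lower (53.9 and 46.1% of all genes), with a median of -0.07, against 0.04 over all 10182 genes. PSME4 was at least 1.5-fold higher (2.63% of members, against 9.42% of all genes), and PSMA2, PSMA3 and PSMD9 were at least 1.5-fold lower (7.89%, against 7.67% of all genes). The share of lower members was close to the background, so it is not a result about the family. In the authors' deposited table PSMA3 and PSMD9 were both at -0.54, which left PSMA2 as the 1 member past that size.

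In the core 12 of 13 genes were lower, and all 13 were below the all-gene median, also under median scaling. Their median difference was -0.26, equal to 1.2-fold lower, and it was -0.25 without PSMA2. PSMA1, PSMA2, PSMA3, PSMA5, PSMB2, PSMB3 and PSMB5 were lower by more than the probe SD, and none was higher by that amount. PSMB5 carries the chymotrypsin-like cutting site, the main target of clinical proteasome inhibitors, and had intensities of 3490 with CDC73 siRNA and 4310 with control siRNA, a difference of -0.29. PSMA3 was at 1871 with CDC73 siRNA and 2828 with control siRNA, a difference of -0.59, with -0.55 from its second probe. PSMA4 was at 0.04 from its brightest probe, -0.31 from its second and -0.02 in the authors' deposited table.

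The 6 assembly factors had a median of -0.35 in sparse cells, and 3 of them were lower by more than the probe SD. Of the 6, 1 was higher with median scaling and 1 in the authors' deposited table. PSMD5 was at -0.04 (0.05 in the authors' deposited table), and PSMG1 was at -0.19 from its brightest probe and 0.07 from its second. PSMD9, a chaperone of the 19S base, had intensities of 264 with CDC73 siRNA and 389 with control siRNA, a log2 difference of -0.71. PSMG2 was at -0.47 and PSMG3, a chaperone of the alpha ring, at -0.46. PSMD10, also called gankyrin, was at -0.24 from its brightest probe and at -0.28 and -0.80 from the other 2.

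Against this, the 4 measured activators had a median of 0.28 in sparse cells, of which PSME3 and PSME4 exceeded the probe SD. PSME2 was at 0.21 and PSME1 at 0.07, near the all-gene median of 0.04. PSME4 had intensities of 3468 with CDC73 siRNA and 2150 with control siRNA, equal to 1.62-fold higher, and PSME3 was at 0.34 with a second probe at 0.26. The 19S genes had a median of 0.02, with 8 higher and 6 lower. Higher by more than the probe SD were the ATPases PSMC3 (0.50) and PSMC1 (0.31), PSMD4 (0.32) and PSMD2 (0.26). By the brightest probes none was lower by more. The higher ones were 4 of 14 (28.6%), against 29.0% of all genes, so their number is not a result about the 19S genes. Second probes gave -0.16 for PSMD4 and -0.03 for PSMC1, so the probes of both genes disagreed in sign in sparse cells. For PSMD6 the brightest probe gave -0.01 and the second -0.47.

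PSME4 and ACYP2, an acylphosphatase gene, start 120 bases apart in opposite directions. ACYP2 had intensities of 222 and 174 in CDC73 and control siRNA confluent cells and of 174 and 150 in CDC73 and control siRNA sparse cells. Its log2 differences were 1.13 in confluent and 0.33 in sparse cells, against -0.14 and 0.69 for PSME4, so the larger value of each gene came at a different density.

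The siRNA differences at the 2 densities were then set side by side for the 37 members detected on all 4 arrays. Both differences had the same sign for 14 members, 8 higher and 6 lower at both densities, where 56.0% of the 9047 genes detected on all 4 arrays had the same sign. For 18 members (48.6%) the value was higher with CDC73 siRNA in confluent and lower in sparse cells, which held for 20.6% of those genes. With quantile normalization these 18 included 11 of the 13 core genes and 4 of the 14 genes of the 19S base and lid. With median scaling 3 members had this order (8.11%, against 6.54% of those genes), namely the core genes PSMA6, PSMB2 and PSMB4. Counted against the all-gene median of each comparison in place of 0, the members above it in confluent and below it in sparse cells were 19 with quantile normalization (51.4%, against 22.1%) and 21 with median scaling (56.8%, against 22.7%). With quantile normalization the opposite order was seen for 5 members (13.5%) by their brightest probes, PSMC1, PSMD2, PSMD8, PSME3 and PSME4. Among all genes this order is the remainder after the 56.0% and 20.6% above, which is a larger share. Its count is therefore not a result about the family. A second probe of PSMC1 gave 0.29 in confluent and -0.03 in sparse cells. Across the 37 members the 2 differences had a Pearson correlation of 0.56, which was -0.08 over the 36 members without PSMA2. These are values across genes that share the same 4 arrays, given as a description.

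**Figure D3:**
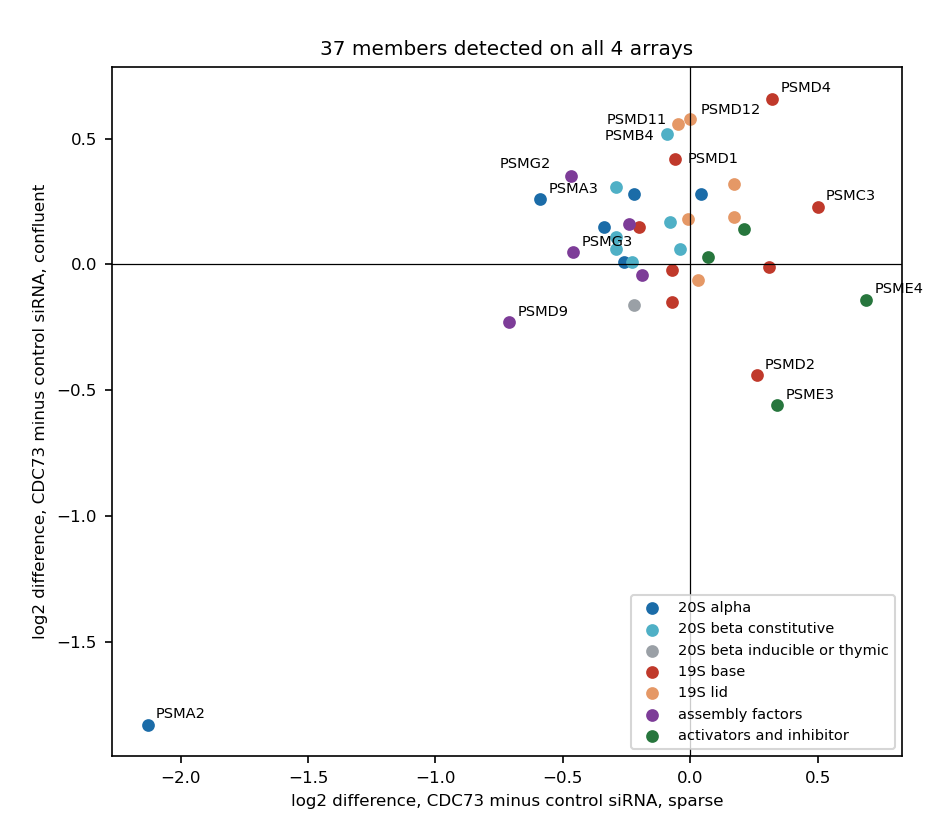
Log2 difference, CDC73 minus control siRNA, in confluent cells (vertical axis) against sparse cells (horizontal axis) for the 37 members detected on all 4 arrays, 1 point per gene, coloured by role. PSMA2 sits alone at the lower left, and 11 core genes lie at the upper left, with a positive value in confluent and a negative one in sparse cells under this quantile normalization and 3 under median scaling.

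The difference between the siRNA differences, confluent minus sparse, summarises this pattern and was not tested, since each group had 1 array. The SD between probes was 0.374. By their brightest probes all 13 core genes had a positive value, with a median of 0.35, while a second probe of PSMA1 gave -0.16. Of all genes 46.2% were positive and 53.8% negative, and the all-gene median was -0.05. PSMA3 (0.84), PSMB2 (0.60), PSMB4 (0.60), PSMA6 (0.50), PSMA5 (0.49) and PSMB5 (0.40) exceeded the probe SD. These were 6 of 13 (46.2%), against 22.3% of all genes. PSMA2 was at 0.30, so it was similarly low at both densities.

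The 19S genes had a median of 0.10 in this measure, with 9 positive and 5 negative (4 and 10 with median scaling), and the ATPases had a median of -0.08. Of the activators, PSME3 (-0.90) and PSME4 (-0.83) were negative by more than the probe SD, while PSME1 (-0.04) and PSME2 (-0.07) lay at the all-gene median. Over the family 5 members were at or above a difference of 1.5-fold and 4 at or below it (13.2 and 10.5%), against 12.7 and 16.8% of all genes. The first share was close to the background and the second was under it. Of the 4, PSMD5 (-0.73) was detected on only 2 arrays and was at -0.34 in the authors' deposited table. Median scaling left no member at or above 1.5-fold but kept 12 of the 13 core genes positive, with all 13 above an all-gene median of -0.47.

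The second question was how the family differed with density. With CDC73 siRNA the 19S particle and PSME3 were lower in confluent cells. The core was close to its level in sparse cells with quantile normalization, but 12 of its 13 genes were lower with median scaling. Of 38 members, 29 were lower in confluent cells and 9 higher (51.8 and 48.1% of all genes), with a median of -0.24, against -0.02 over 10509 genes. At least 1.5-fold lower were 9 members (23.7%), against 14.9% of all genes, and PSMG2 was at least that much higher (2.63%, against 14.4%). Median scaling gave 16 members at least 1.5-fold lower and none higher, with the all-gene median at -0.25. Relative to that median the members were at -0.18, and the share of all genes past 1.5-fold was not counted under that scaling.

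Of the 14 genes of the 19S base and lid, 12 were lower in confluent cells by more than the probe SD with CDC73 siRNA, by their brightest probes. The same held for 28.5% of all genes. The 2 exceptions were the lid subunit PSMD3 (-0.12) and PSMD4 (0.23). PSMD2 had intensities of 1043 in confluent and 2677 in sparse cells, equal to 2.03-fold lower, and the ATPase PSMC3 had 2894 in confluent and 6701 in sparse cells, a log2 difference of -0.88. The 5 measured ATPases ranged from -0.88 to -0.42 by their brightest probes. A second detected probe gave 0.13 for PSMC6, -0.30 for PSMC1 and -0.23 for the lid subunit PSMD6. Further probes of PSMC4 gave -0.21 and -0.60. Of these values only the -0.60 was past the probe SD. In the core, with quantile normalization, none of the 13 genes was lower by more than the probe SD, and PSMB4 was higher by more (0.35). The core median was -0.13 and the 19S median -0.50. With median scaling the core median was -0.36, past the probe SD, with 12 of 13 lower, and the 19S median was -0.77. The all-gene median was then -0.25, and relative to it the core was at -0.11 and the 19S genes at -0.52.

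PSME3 had the lowest density difference of the family with CDC73 siRNA. It was at 721 in confluent and 2581 in sparse cells, equal to 2.88-fold lower after normalization, and its second probe gave a log2 difference of -1.62. PSME4 had 1602 in confluent and 3468 in sparse cells, a difference of -0.78. PSMB10, the inducible subunit, had 687 in confluent and 1485 in sparse cells, a difference of -0.80. These members, like the 19S genes, were lower at confluence. PSMG2 had the highest density difference, 0.61, with 2317 in confluent and 1978 in sparse cells, and its partner PSMG1 was at -0.50.

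With control siRNA nearly the whole family was lower in confluent cells. Of 38 members 35 were lower, against 48.0% of all genes, and 3 were higher (PSMD5, PSME1 and PSME4), against 51.9%, with a median of -0.48, equal to 1.4-fold lower, against 0.02 over 10244 genes. At least 1.5-fold lower were 14 members (36.8%), against 9.54% of all genes, and none was at least 1.5-fold higher, against 13.3%. By more than the probe SD 28 members (73.7%) were lower, against 24.8% of all genes. Of the 12 members with at least 2 detected probes, all 12 had the same sign from each of them in this comparison. The same was true of 8 of the 12 for CDC73 siRNA in confluent cells, 8 for CDC73 siRNA in sparse cells, 10 for density with CDC73 siRNA and 9 for the difference between the siRNA differences.

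The core and the 19S particle were alike in direction with control siRNA. All 13 core genes were lower in confluent cells, from -0.83 for PSMB2 to -0.20 for PSMB1, with a median of -0.48. PSMB2, a beta subunit without a cutting site of its own, had 4678 in confluent and 7804 in sparse cells. All 14 genes of the 19S base and lid were lower, from -1.08 for PSMD1 to -0.11 for PSMD4, with a median of -0.56.

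PSMD1 had an intensity of 1182 in confluent and 2115 in sparse cells with control siRNA, equal to 2.12-fold lower. The lid subunit PSMD11 had 190 in confluent and 257 in sparse cells, a normalized log2 difference of -1.02, which is -0.74 in the authors' deposited table. PSMD12, also of the lid, had 894 in confluent and 1433 in sparse cells, a difference of -0.97 from its brightest probe, and its other 3 probes were not detected. Both lid subunits were thus lower at confluence, as was PSMD6, with 2558 in confluent and 4011 in sparse cells, a difference of -0.76. The ATPases ranged from -0.76 (PSMC6) to -0.34 (PSMC2).

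Outside these particles, PSMB10 was at -0.86 and PSME3 at -0.62 in confluent cells with control siRNA. PSME1 had 6061 in confluent and 4682 in sparse cells, a difference of 0.33, and its partner PSME2 was at -0.17. PSME4 was at 0.05, and PSMD5, below background in sparse cells, was at least 1.04-fold higher in confluent cells. Lower in confluent cells with both siRNAs were 27 of the 37 members detected on all 4 arrays (73%), against 32.6% of all such genes. The 2 comparisons share no array, but the 4 arrays were normalized together. The family was also selected on differences between these arrays, so the overlap is a description and not independent support.

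**Figure D4:**
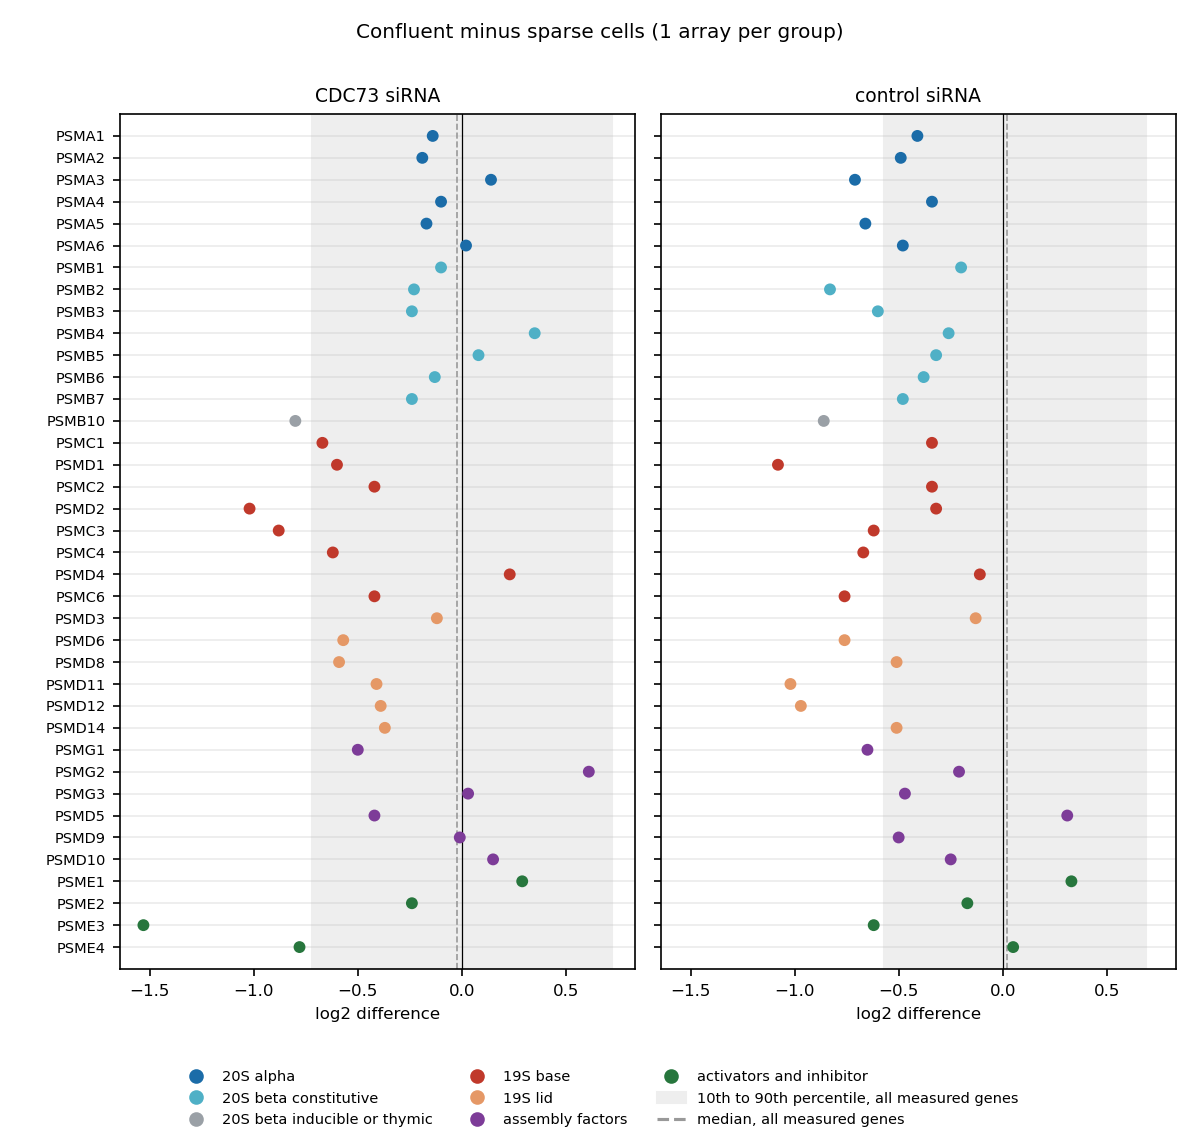
Normalized log2 difference, confluent minus sparse cells, for the 38 measured members with CDC73 siRNA (left) and control siRNA (right), 1 array per group, coloured by role. The grey band spans the 10th to 90th percentile of all measured genes and the dashed line is their median, and all 13 core genes are below 0 with control siRNA.

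**Figure D5:**
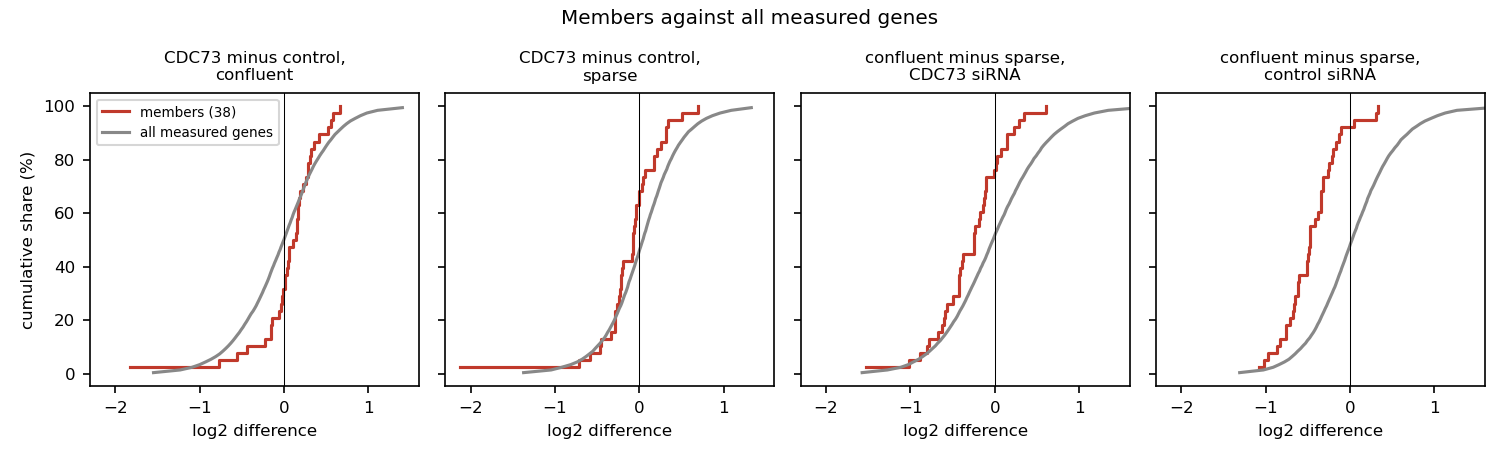
Cumulative share of genes (vertical axis) against the log2 difference (horizontal axis) in each of the 4 comparisons, for the members and for all measured genes. The curve of the members lies left of that of all genes over most of its length in the 2 density comparisons, with medians of -0.24 with CDC73 siRNA and -0.48 with control siRNA.

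The rest of the ubiquitin and proteasome pathway was read from 4 lists with 34 genes, of which 28 were measured. Their median difference after CDC73 siRNA was 0.07 in confluent cells, where all genes had -0.00, and 0.10 in sparse cells, where all genes had 0.04. In confluent against sparse cells it was -0.12 with CDC73 siRNA (all genes -0.02) and -0.08 with control siRNA (all genes 0.02). After CDC73 siRNA in confluent cells 5 were at least 1.5-fold higher (17.9%, against 11.3% of all genes) and 8 lower (28.6%, against 13.3%). These lists were not read with median scaling, which moved the all-gene median of this comparison to -0.40, so signs and counts here may depend on the scaling. In sparse cells 3 were higher (10.7%, against 9.42%) and 2 lower (7.14%, against 7.67%), which is close to the background. With density under CDC73 siRNA 1 was higher (3.57%, against 14.4%) and 6 lower (21.4%, against 14.9%). Under control siRNA none was higher (against 13.3%) and 4 were lower (14.3%, against 9.54%).

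Among proteins that bind the proteasome, USP14, the deubiquitinase of the 19S particle, had 360 and 1189 in CDC73 and control siRNA confluent cells and 651 and 854 in CDC73 and control siRNA sparse cells, log2 differences of -1.34 and -0.44. TXNL1, a thioredoxin-like protein of the 19S particle, had 410 and 305 in CDC73 and control siRNA confluent cells and 312 and 409 in CDC73 and control siRNA sparse cells, differences of 1.18 and -0.51. ECPAS, an adaptor of the proteasome, was at -0.68 in confluent and 0.47 in sparse cells.

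Of the regulators, NFE2L1 had 660 and 736 in CDC73 and control siRNA confluent cells and 822 and 524 in CDC73 and control siRNA sparse cells, normalized log2 differences of 0.45 and 0.66. NGLY1, the deglycosylase that NFE2L1 needs for its activity, was at 0.26 in confluent and -0.66 in sparse cells. MAFG, a partner of NFE2L1, was at 0.35 in confluent and 0.50 in sparse cells. In confluent cells the deposited intensities with CDC73 and control siRNA were 282 and 347 for NGLY1 and 243 and 283 for MAFG. For these genes and NFE2L1 the deposited intensity was thus lower with CDC73 siRNA, and the positive sign in confluent cells rests on the normalization. The protease DDI2 was not detected on any array.

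RAD23B, which carries ubiquitylated proteins to the proteasome, had 519 and 1501 in CDC73 and control siRNA confluent cells and 562 and 1228 in CDC73 and control siRNA sparse cells, log2 differences of -1.10 and -1.21. Like PSMA2, it was lower with CDC73 siRNA at both densities. VCP, the segregase that extracts ubiquitylated proteins, was at -0.73 in confluent and 0.25 in sparse cells. UBQLN1, a shuttle factor, was at 0.91 in confluent and -0.02 in sparse cells. Of the ubiquitin-activating enzymes, UBA1 was at -0.69 in confluent and 0.14 in sparse cells, and UBA6 at 0.63 in confluent and 0.12 in sparse cells. The deposited intensity of UBA6 in confluent cells was 678 with either siRNA, so its value there rests on the normalization. The ubiquitin gene UBB was at 0.04 in confluent and -0.25 in sparse cells.

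Finally, the members' differences from the intensity table were compared with those from the authors' deposited log2 table. They correlated across the 38 members at 0.973 for CDC73 siRNA in confluent cells, 0.991 in sparse cells, 0.987 for density with CDC73 siRNA and 0.973 with control siRNA, and 38, 35, 37 and 38 members had the same sign. Both tables come from the same 4 arrays, so this compares processing and does not replicate the measurement.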

How the data were processed

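RNA from 4 HEK293 samples, 1 per group, was measured on Illumina bead arrays. The authors deposited a table of non-normalized probe intensities, without detection p-values, and a table of log2 values with equal array medians of 6.415, normalized between arrays. The method behind the second table is not given in the sources used here. Of 49576 probes, 773 had no value, and of the rest 28098 had 1 gene symbol, 13 several and 20692 none, in an annotation whose symbols were updated through gene IDs.

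From the intensities, background was corrected with normexp in limma 3.58.1 (R 4.3.3), with 452 olfactory receptor probes as negative controls and an offset of 16. Arrays were then quantile normalized and taken to log2. Each gene was represented by the probe that was brightest on average. It counted as measured in a comparison if detected, at p under 0.01 against the negative controls, on at least 1 of the arrays compared. A call means a difference of at least 1.5-fold. A gene undetected on 1 side is given as a bound against the lowest signal detected on that array.

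All members could be named by the rule, by role. Values on every array are given for members past 1.5-fold or at the ends of a role group by siRNA difference (ends by level were left out, since levels of different probes are not comparable), and up to 3 genes of each pathway list are named by the size of their difference. The members and lists were chosen with earlier results of these data known. Array number limits the precision, and the calculation was tested on simulated data. The settings varied were the background step, the offset (50), the scaling (by medians), the table, the detection rule and the probe average.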

Additional observations from a re-analysis of the deposited data

Results flagged for a closer look

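For 3 members the CDC73 siRNA difference had opposite signs at the 2 densities and was larger than the spread between probes each time. With 1 array per group this was not tested. PSME3 was at -0.56 in confluent and 0.34 in sparse cells, a difference between them of -0.90, and both of its probes gave that value. PSMD2 was at -0.44 in confluent and 0.26 in sparse cells, a difference of -0.71. PSMG2 was at 0.35 in confluent and -0.47 in sparse cells, a difference of 0.82, but with median scaling its value in confluent cells was -0.02, so its sign there depends on the scaling.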

How the results depend on the processing

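No paired analysis was possible because each group had 1 array and every array carried the number 1. There were 8 alternative settings, each of which changed 1 choice except the authors' table, which replaces the background step, offset and normalization together. Of 120 family summaries under them, 104 stayed the same. For counts this meant within 1.5 times the reported count, and for medians within a fixed log2 margin narrower than the probe spread.

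The exceptions came mostly from median scaling, which moved the all-gene median to -0.40 for CDC73 siRNA in confluent cells, 0.07 in sparse cells, -0.25 for density with CDC73 siRNA, 0.22 with control siRNA and -0.47 for the difference of differences. With it the members' median for CDC73 siRNA in confluent cells reversed to -0.20, or 0.19 relative to all genes, with 0 members at least 1.5-fold higher and 6 lower. For density with CDC73 siRNA the median was -0.43, with 0 members higher and 16 lower, and with control siRNA 1 member was higher. The difference of differences had a median of 0.02, with 0 members higher.

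After CDC73 siRNA, 1 member was at least 1.5-fold lower in confluent cells with no background correction, with an offset of 50, or when detection on every array was required, and 1 in sparse cells with no background correction or in the authors' table. The authors' table had 2 members higher in confluent cells. Averaging a gene's named probes gave 8 members higher in the difference of differences. In the values of single genes, 43 of 960 moved by more than the probe spread and none of the called ones changed sign. Dim probes such as those of PSMD5 and PSMD11 are limited by signal over background: PSMD5 in confluent cells was at -0.36 without background correction and -0.29 in the authors' table.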

Other observations

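Several other members share a start region with a gene on the opposite strand. ATG4A, an autophagy protease gene that starts 236 bases from PSMD10, had log2 differences after CDC73 siRNA of -0.41 in confluent and -0.20 in sparse cells, against 0.16 and -0.24 for PSMD10. RNF31, a ubiquitin ligase gene 265 bases from PSME2, was at -0.30 in confluent and 0.08 in sparse cells, against 0.14 in confluent and 0.21 in sparse cells for PSME2. TAP1, the peptide transporter gene 488 bases from PSMB9, was detected on all 4 arrays, at 653 and 1299 in CDC73 and control siRNA confluent cells and 1202 and 1107 in CDC73 and control siRNA sparse cells, while PSMB9 was detected on none. The neighbours of PSMG2 (CEP76) and PSMD9 (HPD) were not detected.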
